A study of Rattus norvegicus with 22 samples.

Results

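Cytosolic ribosomal proteins are the protein parts of the ribosomes that translate nuclear-encoded messengers, and their genes were followed here across muscle and fat of obese rats, with Rpl30 set against the other members. The members were taken by name, and the family was chosen with earlier results of these data known. They are the entries whose gene symbol is Rpl or Rps followed by a number, or is Rplp0, Rplp1, Rplp2 or Rpsa. The number may carry the letters or further digits of paralogs and copies. The rule found 102 of the 32623 entries of the deposited gene table, 64 for the large and 38 for the small subunit. They carry 90 symbols and cover, by symbol, 75 of 77 usual ribosomal proteins of this naming. Rpl8, Rpl30, Rpl35a, Rpl37 and Rpl38 are covered only by entries without introns. Rps13 and Rps26 were not analysed here.

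The libraries came from male Sprague Dawley rats, bought at an age of 3 weeks and made obese on a high-fat feed, a diet that every group here shared. In gastrocnemius muscle there were 3 libraries each of hypoxia exercise (MHE), hypoxic quiet (MH), normoxia exercise (MCE) and normoxia quiet (MC) rats. In epididymal adipose tissue there were 2 libraries of hypoxia exercise (FHE), 2 of hypoxic quiet (FH), 3 of normoxia exercise (FCE) and 3 of normoxia quiet (FC) rats. Exercise was treadmill running, drawn as slower under hypoxia than under normoxia in the study's picture of its training schedule (its text does not assign the speeds), so that HE against CE and the interaction compare running speed as well as oxygen, and no library of lean rats was analysed here.

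A ribosome is built from a small subunit, which decodes the messenger, and a large subunit, which joins the amino acids, and each holds one copy of most of its proteins. Ribosomal protein messengers in mammals start with a C followed by a run of pyrimidines (C or T in the DNA), through which their translation is switched together by the mTOR kinase. Their genes have spawned many processed copies, which are messengers copied back into the genome without introns, and reads from such copies and from the parent gene are hard to tell apart.

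The start of the messenger is shown for some members that the results below turn on. Its tract is a sequence feature of ribosomal protein messengers that the naming rule did not use. Each line gives 10 bases before and 20 bases from the RefSeq start of the gene, 5′ to 3′ on the gene's strand in the rat build GRCr8, and capitals mark the run of C and T from the start where it is a C followed by at least 4 further C or T letters.
Rpl30l2 (chr10:37332841-37332870, minus strand): agttgctacaCCTTTCTCgctccccggcca
Rplp0 (chr12:46718371-46718400, minus strand): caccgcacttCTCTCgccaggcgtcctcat
Rplp1 (chr8:71290853-71290882, minus strand): cgcatgtgatCCTTTCCTCagctgccgcca
Rpl35 (chr3:43165902-43165931, minus strand): cttcctctttCTCTCgaaccgggcggcctc
Rps18 (chr20:4933735-4933764, plus strand): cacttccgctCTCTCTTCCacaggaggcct
Rpl37a (chr9:81748081-81748110, plus strand): cccgttgcgtCTCTTCCTCTTCgggcttgg
Rpl7l1 (chr9:21695708-21695737, plus strand): cagatgcattgtgggaagcctttaactcgt
Rpl3l (chr10:14258436-14258465, plus strand): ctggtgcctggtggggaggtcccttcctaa

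The entry Rpl30l2 is RefSeq's name for the copy on chromosome 10 that the deposited table calls Rpl30. The tract began exactly at the annotated start in 23 of the 68 member symbols with a RefSeq start (33.8%), against 722 of 27457 starts of all genes (2.63%). It was found in 17 of 44 large subunit and 6 of 24 small subunit symbols. Rpl6, Rpl12, Rpl36a, Rpl41, Rplp2 and Rpsa, whose levels are given below, were among the symbols without it. Annotated starts can be some bases off the true one, so a missing tract says only that these letters were not at this position.

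Depth was set by mitochondrial transcripts. Muscle libraries held 27149905 to 43834953 counts in total and fat libraries 31449793 to 44334313, of which mitochondrially encoded genes took 89.4% to 97.4% in muscle, 44.7% and 40.7% in FHE and 10.1% to 22.6% in the other fat libraries. Nuclear genes were left with 841153 (MH3) to 4334813 counts in muscle and 20060028 to 36162561 in fat, and levels below are counts per 1000000 nuclear counts (CPM) unless TPM is named. Tissue labels held, since 10 of 12 skeletal muscle fibre markers matched the table and summed to 44415 to 97861 CPM in muscle, and 8 of 8 adipocyte markers summed to 12292 to 35651 CPM in fat, against 233 to 706 CPM in muscle. Fat library FHE3 held 27757 CPM of the fibre markers and FCE2 held 1572 CPM, against 5.01 to 64.9 CPM in the other 8 fat libraries, and Myh7 was at 0 in 6 fat libraries. The labels do not say which libraries came from one rat, the study's methods count the libraries as rats, which reads as a separate rat for each, and p-values measure the spread between these libraries.

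The members together took a larger share of nuclear counts in muscle than in fat. In muscle the share was 9.81%, 11.5% and 7.90% in MHE, 8.44%, 9.89% and 6.18% in MH, 9.04%, 9.06% and 9.22% in MCE, and 8.90%, 10.8% and 10.6% in MC. In fat it was 7.54% and 5.01% in FHE, 3.82% and 3.61% in FH, 4.07%, 2.54% and 4.32% in FCE, and 3.73%, 3.05% and 2.25% in FC. The lowest muscle library, MH3, was also the shallowest and lay below FHE2, and both FHE libraries lay above the other 8 fat libraries. The 4 muscle groups overlapped.

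**Figure D1:**
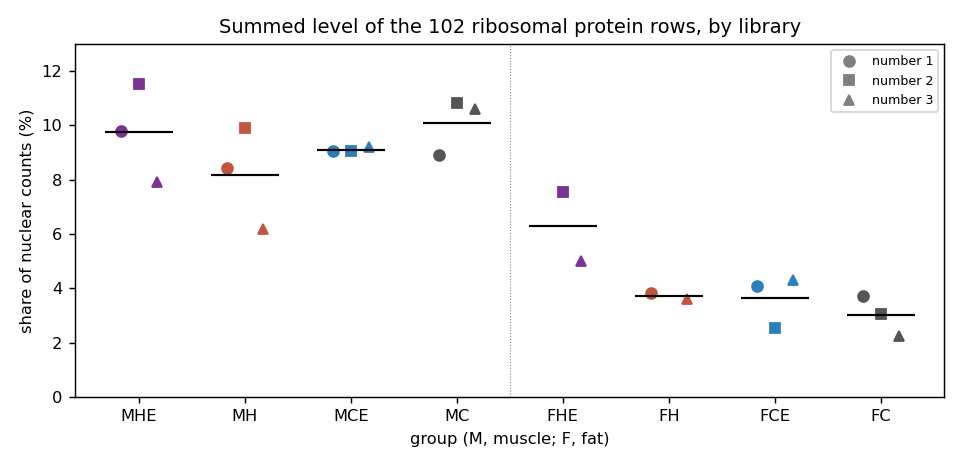
Share of nuclear counts (%) taken by the 102 ribosomal protein entries, by group, with 1 point per library, its shape giving the library's number, and a line for the group mean. Muscle libraries lie between 6.18% and 11.5%, FHE libraries at 7.54% and 5.01%, and the other fat libraries between 2.25% and 4.32%.

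The balance between the subunits varied little. Summed large subunit CPM over summed small subunit CPM was 1.34 to 1.46 in the 12 muscle libraries and 1.31 to 1.44 in the 10 fat libraries. Of the 102 entries, 93 averaged at least 10 CPM in muscle and 91 did in fat, while 6 averaged under 1 CPM in both.

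Set per length, Rps29 and Rplp0 had the highest mean levels in muscle and Rplp1 and Rps29 in fat. In muscle, TPM rescaled to nuclear genes averaged 5659 ± 1118 for Rps29, a zinc-binding protein of the small subunit, and 4573 ± 686 for Rplp0, the base of the stalk that contacts elongation factors (SD, n = 12). Rpl35, a large subunit protein near the exit tunnel, followed with 4443 ± 699, Rps18, a protein of the small subunit's head, with 4256 ± 644, and Rpl26, also near the tunnel, with 4176 ± 746 TPM. Each of these means differed from the next in the order by less than the larger of their SDs. In fat the highest were Rplp1, a stalk protein, with 3027 ± 1438 TPM, Rps29 with 2997 ± 1269 and Rpl41, the shortest ribosomal protein, with 2989 ± 1575 (SD, n = 10). Rpsa, a small subunit protein also known as the laminin receptor precursor, had 2449 ± 599 and Rplp0 had 2356 ± 525 TPM in fat, again closer together than their spread.

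The entry named Rpl30 was the only member that edgeR called within a tissue, while DESeq2 called others too in fat. Rpl30 is a large subunit protein that in mammals also binds the RNA element through which selenocysteine is inserted. The entry (ENSRNOG00000032825) lies on chromosome 10, minus strand, 38024477 to 38024937 in the coordinates of Ensembl release 99, and its span of 461 bases is about its counted length, so it has no intron. It had 392, 403 and 353 CPM in MHE, 61.5, 88.4 and 98.7 in MH, 405, 544 and 357 in MCE, and 593, 508 and 425 in MC. All 3 MH libraries were below every library of the other groups, MHE and MCE overlapped, and MCE and MC overlapped.

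In hypoxic quiet against normoxia quiet muscle the log2 fold change of this entry was -2.64 (SE 0.27, edgeR adjusted p = 0.00134 over 12421 genes). In hypoxia exercise against hypoxic quiet muscle it was 2.23 (SE 0.26, edgeR adjusted p = 0.00884). These were 1 of 94 members tested in each comparison, where 0.0403% of all genes were called for MH against MC (0.0161% as lower) and 0.00805%, which is this gene alone, for MHE against MH. The MHE against MH call by edgeR was lost without MHE2 (2.16, adjusted p = 0.0647), without MH1 (2.03, adjusted p = 0.0825) and without MH2 (2.34, adjusted p = 0.0573), while MH against MC kept its call without each library (adjusted p of 0.000237 to 0.0112). Exercise under normoxia (MCE against MC, -0.22, SE 0.25) and hypoxia among the exercised (MHE against MCE, -0.19, SE 0.25) were not called (edgeR adjusted p = 1 and 0.997). The interaction, the effect of exercise under hypoxia minus that under normoxia, was 2.45 (SE 0.36, edgeR adjusted p = 0.109), and passed with DESeq2 (adjusted p = 1.02e-06) and in edgeR without the filter on low counts (adjusted p = 0.00719) or without MCE2 (adjusted p = 0.0287).

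In fat, too, the hypoxic quiet group was the lowest, but edgeR made no call. The entry had 166 and 78.1 CPM in FHE, 23.1 and 27.8 in FH, 108, 99.2 and 105 in FCE, and 168, 76.0 and 75.6 in FC. Both FH libraries were below all other fat libraries, while FHE, FCE and FC overlapped. The log2 fold change was -2.31 (SE 0.49) for FH against FC and 2.48 (SE 0.51) for FHE against FH, with edgeR adjusted p = 0.593 and 0.202 over 16364 genes. DESeq2 called both (adjusted p = 0.000344 and 0.000254) and the fat interaction of 2.49 (adjusted p = 0.0415, against 0.943 in edgeR). In FHE against FCE it was 0.18 and in FCE against FC -0.01, with edgeR adjusted p = 0.904 and 0.998.

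A further entry of the table sits at the place of the intron-bearing Rpl30 gene. The table lists LOC100362027 (ENSRNOG00000005975) on chromosome 7, minus strand, 73213581 to 73216251, with introns, between Matn2 and Erich5, which is where RefSeq places the gene Rpl30. RefSeq gives the gene number 100362027 to Rpl30l2 on chromosome 10, next to Fstl4, where the table places its Rpl30. The names of the intron-bearing gene and of its one-exon copy are thus exchanged between the table and RefSeq, and the naming rule took the copy. This chromosome 7 entry is no member and was chosen after its values were seen. RefSeq lists 16 symbols that start with Rpl30, 11 of them pseudogenes, and 72 LOC entries of the table carry a ribosomal protein symbol in RefSeq, 34 of them at 10 CPM or more in muscle.

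The chromosome 7 entry was not low where the chromosome 10 entry was. In muscle it had 573, 569 and 452 CPM in MHE, 724, 977 and 512 in MH, 643, 198 and 535 in MCE, and 200.2, 622 and 641 in MC. In fat it had 300.1 and 119 CPM in FHE, 154 and 209 in FH, 164, 33.6 and 143 in FCE, and 57.1, 108 and 94.7 in FC. MH libraries overlapped MHE, MCE and MC, and both FH libraries were above all FC libraries. Single libraries of the normoxia groups stood low, namely MCE2, MC1, FCE2 and FC1, and the chromosome 10 entry was the highest of its group in MCE2, MC1 and FC1 and the lowest in FCE2. The chromosome 7 entry was called in none of the 4 comparisons, with log2 fold changes of 0.59 (SE 0.43, adjusted p = 0.769) for MH against MC, -0.46 (adjusted p = 1) for MHE against MH, 0.86 (adjusted p = 1) for FH against FC and 0.44 (adjusted p = 0.751) for FHE against FH, all from edgeR.

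Summed over both entries, Rpl30 was called in neither of these muscle comparisons. The sum averaged 914 ± 94.8 CPM in MHE, 821 ± 229 in MH, 894 ± 153 in MCE and 996 ± 179 in MC (SD, n = 3 each). In fat it averaged 332 ± 191 CPM in FHE, 207 ± 42.4 in FH (SD, n = 2 each), 217 ± 74.2 in FCE and 193 ± 28.6 in FC (SD, n = 3 each). The 4 muscle groups overlapped, and in fat only FHE2, at 466 CPM, lay above all libraries of the other groups. With the counts of both entries added before the fit, a setting chosen after the values were seen, the log2 fold change was -0.29 for MH against MC (edgeR adjusted p = 0.819) and 0.17 for MHE against MH (adjusted p = 1), and no member was called in either comparison.

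**Figure D2:**
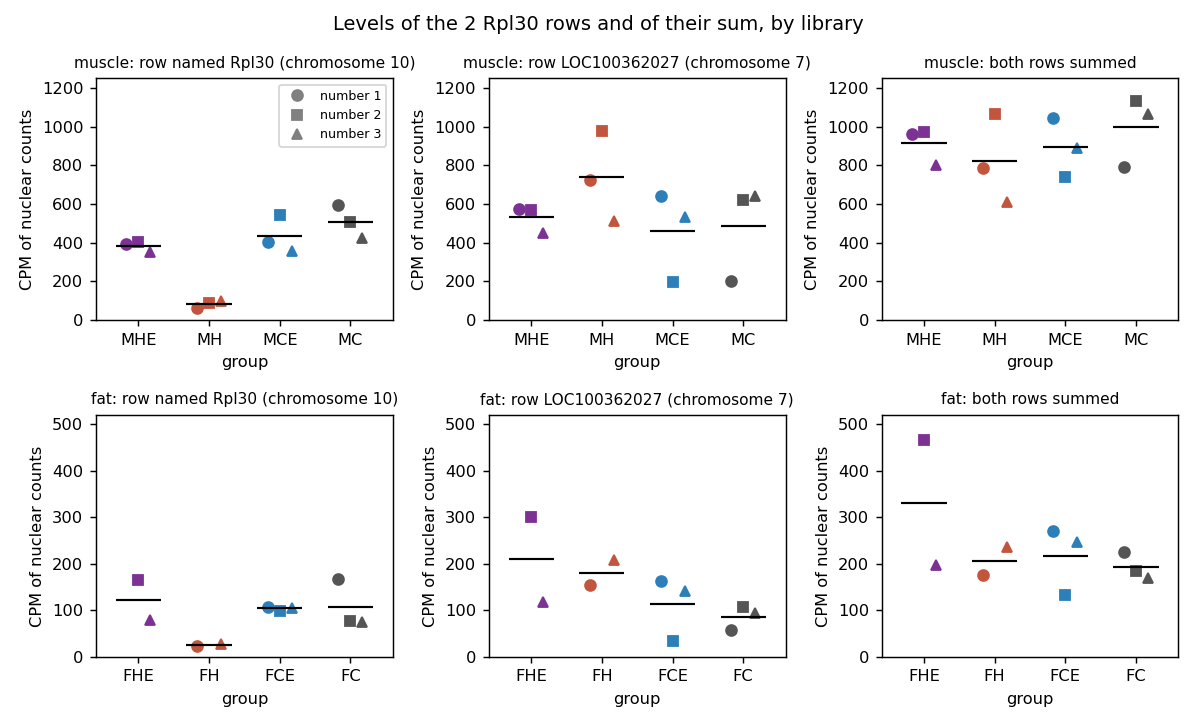
Levels in CPM of nuclear counts, by group and library, of the chromosome 10 entry named Rpl30, of the chromosome 7 entry LOC100362027 and of their sum, in muscle (upper panels) and fat (lower panels), with a line for each group mean. The chromosome 10 entry is at 61.5 to 98.7 CPM in MH against 353 to 593 CPM in the other muscle groups, whereas the sums of all 4 muscle groups overlap.

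The share of the chromosome 10 entry in the counts of both entries fell into 3 separate ranges. It was 40.6%, 41.4% and 43.9% in MHE, 7.83%, 8.29% and 16.1% in MH, 38.6%, 73.4% and 39.99% in MCE, and 74.8%, 44.9% and 39.8% in MC. In fat it was 35.6% and 39.7% in FHE, 13.1% and 11.7% in FH, 39.7%, 74.7% and 42.5% in FCE, and 74.6%, 41.4% and 44.4% in FC. All 5 hypoxic quiet libraries were at 7.83% to 16.1%, 13 libraries were at 35.6% to 44.9%, and MCE2, MC1, FCE2 and FC1 were at 73.4% to 74.8%. Wilson intervals (95%, counting error only) were 13.2% to 19.6% for MH3, the library with the fewest counts of both, and 73.6% to 75.6% for FC1, so the ranges stand apart beyond counting error. These ranges were read from the data and are no groups of the study.

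Libraries at the high share came in muscle and fat pairs of one treatment and number, namely MCE2 with FCE2 and MC1 with FC1. Over the 10 such pairs, muscle and fat differed by 0.13 to 5.80 percentage points (median 3.88). Over the 20 pairs of the same treatment but another number, they differed by 0.329 to 36.1 points (median 4.88). Libraries are shared among these pairs, and whether a number stands for one rat in both tissues is not given in the labels.

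**Figure D3:**
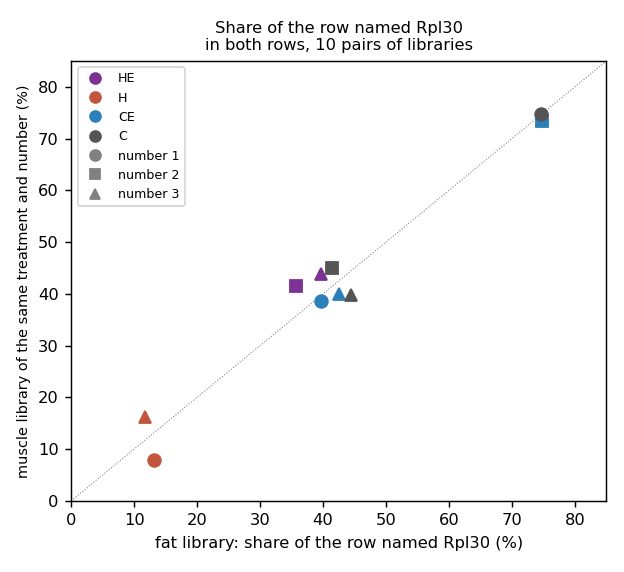
Share (%) of the chromosome 10 entry in the counts of both Rpl30 entries, for each of 10 pairs of a fat library (horizontal axis) and the muscle library of the same treatment and number (vertical axis), coloured by treatment, with the line of equal shares. Hypoxic quiet pairs lie at 7.83% to 16.1%, the pairs of CE number 2 and C number 1 at 73.4% to 74.8%, and the rest at 35.6% to 44.9%.

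Against the other members' summed counts as the library size, the chromosome 10 entry still stood low in MH. It had 3511 to 4484 counts per 1000000 counts of the other members in MHE, 729 to 1599 in MH, 3885 to 6043 in MCE and 4025 to 6708 in MC. On this scale the log2 fold change was -2.29 for MH against MC (edgeR adjusted p = 0.0292) and 1.92 for MHE against MH (adjusted p = 0.342). The edgeR call of MH against MC on this scale was lost in 8 of 12 fits that left out 1 library (without MHE1, MHE2, MHE3, MH1, MH2, MCE3, MC1 or MC2; adjusted p of 0.0527 to 0.0996), and MHE against MH passed without MH3 (2.30, adjusted p = 0.0497). The exact two-sided permutation test over samples gave p = 0.1 for both, the smallest p that 20 splits of 3 against 3 allow. With both entries summed, the exact permutation test gave log2 differences of 0.02 (p = 0.8) and -0.07 (p = 0.6).

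In fat the chromosome 10 entry had 2207 and 1562 counts per 1000000 counts of the other members in FHE, 606 and 770 in FH, 2443 to 3918 in FCE and 2500 to 4531 in FC. FH was again below the other groups in each library. On this scale FH against FC gave -2.33 (edgeR adjusted p = 0.754) and FHE against FH gave 1.45 (adjusted p = 0.167). The exact permutation tests, which cannot go below 0.2 and 0.333 with these group sizes, gave p = 0.2 and p = 0.333.

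The other members were not as low in MH as the chromosome 10 entry, though most had negative log2 fold changes. Between MH and MC, their log2 fold changes ran from -0.66 for Rpl6, a large subunit protein, to 5.02 for a further entry of Rpl13a, with a median of -0.31 over the 94 tested, against -0.0038 over all genes tested. The median was -0.52 without MH2 and -0.15 without MH3. Without MH2, 38 members were at an unadjusted p under 0.05 in edgeR, against 4 with all libraries. The share of all genes in the fit without MH2 is not given here. The 16 other one-exon entries ran from -0.54 (Rps18l1) to 0.44 (Rpl31l4) with a median of -0.29. A total of 86 members were negative and 8 positive. Every MH library was below every MC library in 14 members, where 5.59% of all genes did the same, and above in none, where 8.2% of all genes did.

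Rpl6 came next to Rpl30 by its p. It had 1406, 1524 and 1106 CPM in MHE, 887, 1144 and 801 in MH, 1261, 1125 and 1199 in MCE, and 1433, 1558 and 1449 in MC. The MH libraries were below all MC libraries, while MHE3 lay below MH2. The log2 fold change was -0.66 (SE 0.22, edgeR adjusted p = 0.386) for MH against MC and 0.53 (SE 0.21, adjusted p = 1) for MHE against MH.

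In MHE against MH, 85 members were positive and 9 negative, with a median of 0.26 against -0.01 over all genes. The median was 0.07 without MHE2, 0.07 without MH3 and 0.46 without MH2. In the fit without MH2, 25 members were at an unadjusted p under 0.05 in edgeR, against 5 with all libraries. The share of all genes in that fit is not given here. Adipocyte markers summed to 484 to 706 CPM in MHE, every library above the 371 to 437 CPM in MH, and their part in the values of Rpl30 and the other members was not tested. Rpl12, which sits at the base of the stalk, had the highest value after Rpl30, 0.75 (SE 0.28, edgeR adjusted p = 1), with 1023, 1253 and 621 CPM in MHE and 644, 615 and 493 in MH. MHE3 lay between the MH libraries, so the groups overlapped. Only Rpl30 was higher in every MHE than in every MH library, where 3.92% of all genes were, and no member was lower in every one, where 4.82% of all genes were. MH against MC and MHE against MH share the MH libraries, so their opposite signs are not independent of each other.

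In MCE against MC no member was called by edgeR or DESeq2, and none was at an unadjusted p under 0.05 in edgeR, where edgeR called 0.00805% of all genes, DESeq2 called 0.0484% and 3.09% had such a p. The median was -0.16 with 78 negative (-0.07 without MC2), and 13 members were lower in every MCE library, where 3.47% of all genes were. The one-exon copy of Rpl32 on chromosome 6, a further copy chosen after its values were seen, was alone in being higher in every library (4.19% of all genes were), with 64.7, 66.1 and 77.2 CPM in MCE and 47.8, 54.2 and 54.6 in MC. Among the smallest p were 2 one-exon copies of Rpl21, a large subunit protein, on chromosomes X (-0.45, SE 0.22) and 13 (-0.40, SE 0.23), with adjusted p = 1 in edgeR.

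In MHE against MCE no member was called by edgeR (0.0% of all genes) or DESeq2 (0.113%), and none reached an unadjusted p under 0.05 (3.58% of all genes did). The median was 0.11 with 72 positive, but -0.09 without MHE2, 0.04 without MCE1 and 0.21 without MHE3, and no member was higher (4.81% of all genes) or lower (4.7%) in every library. The X copy of Rpl21 (0.35) and both entries of Rpl7a (0.29 each) had the smallest p, with edgeR adjusted p = 0.997. Adipocyte markers summed to 484 to 706 CPM in MHE against 252 to 299.7 CPM in MCE, and erythroid markers (4 of 5 matched) to 4099 to 7256 against 9081 to 25615 CPM, and their part was not tested. In the interaction 88 of 94 were positive with a median of 0.40 (0.21 without MHE2, 0.22 without MH3, 0.60 without MH2), 4 were higher at an unadjusted p under 0.05 (1.65% of all genes) and none lower (2.17%), and edgeR called none (0.0% of all genes) where DESeq2 called 1 (0.105%). Without MH2, 27 members were at such a p, and the share of all genes in that fit is not given here. Rpl6 was among the 4, with 0.84 (SE 0.30, edgeR adjusted p = 1).

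**Figure D4:**
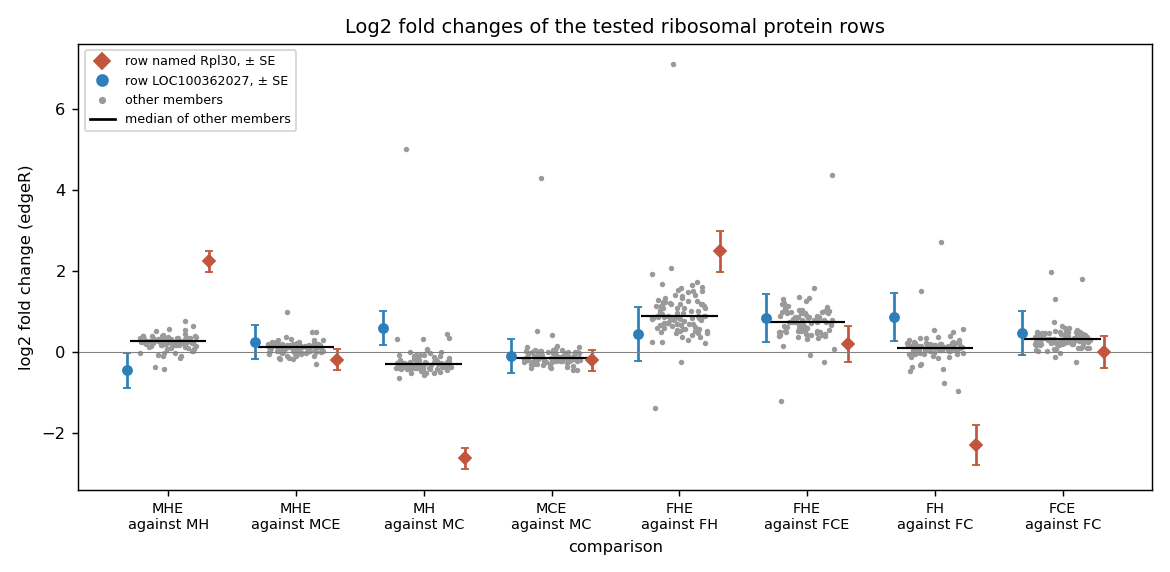
Log2 fold changes (edgeR) of the tested ribosomal protein entries in 8 comparisons, with grey points for the members, a diamond for the chromosome 10 entry named Rpl30 and a circle for the chromosome 7 entry, both ± SE. The diamond stands at -2.64 for MH against MC and at -2.31 for FH against FC, below all other members, and at 2.23 for MHE against MH, above all other members.

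In fat, ribosomal protein values were higher in FHE than in FH for nearly all members, though edgeR called none (0.0% of all genes). A total of 93 of 95 tested members were positive with a median of 0.87, against -0.07 over all genes, and 42 were higher and 1 lower at an unadjusted p under 0.05, where 7.41% and 9.42% of all genes were. Both FHE libraries were above both FH libraries in 68 members, where 14.2% of all genes were. DESeq2 called 17 members, 16 as higher, where it called 3.15% of all genes, and 1 as lower, where it called 3.26%. Without FHE3 and FCE2, the libraries with fibre transcripts, the median was 1.12, 48 members were higher and 1 lower at an unadjusted p under 0.05 (4.55% and 9.93% of all genes in that fit) and edgeR called none. Without FHE2 the median was 0.57 and without FH3 it was 0.65, in fits that left the group concerned without a replicate.

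FHE libraries differed from FH in other measures. Mitochondrial transcripts took 44.7% and 40.7% of their counts against 11.6% and 10.3% in FH, fibre markers summed to 15.6 and 27757 CPM against 10.2 and 31.2, and mesothelial markers (8 of 8 matched) to 103 and 70.9 CPM against 147 and 1006. Macrophage markers (8 of 8 matched) summed to 1552 and 991 CPM in FHE against 1681 and 2732 in FH, and lymphocyte markers (9 of 10 matched) to 21.7 and 15.9 CPM against 24.1 and 131. Adipocyte markers summed to 27077 and 25721 CPM in FHE and 33626 and 12292 CPM in FH. The part of these differences in the members' values was not tested, and in bulk tissue fewer cells of a type and less RNA per cell cannot be told apart.

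Rpl36a, a large subunit protein at the exit site of the transfer RNA, had 754 and 631 CPM in FHE, 184 and 197 in FH, 233, 131 and 316 in FCE, and 222, 151 and 109 in FC. Its FHE libraries were above all others, with 2.07 for FHE against FH (SE 0.48, edgeR adjusted p = 0.202). Rpl37a, a zinc-binding large subunit protein, had 871 and 687 CPM in FHE, 281 and 324 in FH, 305, 209 and 390 in FCE, and 321, 247 and 184 in FC. It stood at 1.34 for FHE against FCE (SE 0.35, edgeR adjusted p = 0.29), again with both FHE libraries on top. Rplp2, a stalk protein chosen after its values were seen, had 536 and 359 CPM in FHE against 173 and 86.7 in FH, with no overlap.

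Rpl7l1, a paralog of Rpl7, went the other way. No tract was found at its annotated start, nor at that of Rpl36a, which was higher in FHE. It had 8.77 and 10.01 CPM in FHE, 31.3 and 24.6 in FH, 20.7, 22.5 and 19.7 in FCE, and 24.4, 20.6 and 26.8 in FC. Both FHE libraries were below all other fat libraries. It was the only member lower in every FHE than in every FH library, where 28.9% of all genes were, with -1.40 (SE 0.31, edgeR adjusted p = 0.202) for FHE against FH and -1.21 (SE 0.29, adjusted p = 0.28) for FHE against FCE.

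FHE against FCE gave a like picture, with fewer members whose libraries stood apart. The median was 0.73 with 92 of 95 positive (0.38 without FHE2), 27 were higher and 1 lower at an unadjusted p under 0.05 (4.8% and 6.56% of all genes), and edgeR called none (0.0% of all genes) where DESeq2 called 3 as higher (1.29% of all genes) and 1 as lower (1.86%). Both FHE libraries were above all FCE libraries in 56 members, where 14.6% of all genes were, and below in Rpl7l1 alone, where 14.2% were. Without FHE3 and FCE2, 10 members were higher and 1 lower at an unadjusted p under 0.05 (2.04% and 5.86% of all genes in that fit) and the median was 0.79. Without FCE2, 6 members were at such a p, and the share of all genes in that fit is not given here. Mitochondrial transcripts took 44.7% and 40.7% of counts in FHE against 10.1% to 22.6% in FCE, and mesothelial markers summed to 103 and 70.9 CPM against 3.39 to 40.4 CPM, and their part was not tested. This comparison shares the FHE libraries with FHE against FH.

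In FCE against FC no member was called by edgeR (0.0% of all genes) or DESeq2 (0.396%) and none reached an unadjusted p under 0.05 (5.04% of all genes did). A total of 91 were positive with a median of 0.30 (0.17 without FCE1, 0.49 without FCE2, 0.57 without FC1 and 0.09 without FC3), and no member was separated in every library, in either direction (4.24% of all genes were higher and 6.18% lower). The smallest p belonged to Rpl10l, a paralog of Rpl10 known from the mouse testis, at 0.491 to 3.61 CPM over the fat libraries. In FH against FC edgeR called none (0.0% of all genes) and DESeq2 called Rpl30 alone (0.958%), the median was 0.09 with 74 positive, and 1 member was higher (2.4% of all genes) and 1 lower (2.35%) at an unadjusted p under 0.05. Leaving out 1 library turned this median to -0.21 (FH1) or -0.11 (FC3) and raised it to 0.34 (FH3) or 0.35 (FC1). The fits without FH1 or FH3 left the FH group without a replicate. Every FH library was above every FC library in 19 members (14.2% of all genes) and below in Rpl30 and the main entry of Rpl39, a large subunit protein, at 84.0 and 90.6 CPM in FH against 93.9 to 109 CPM in FC (4.91% of all genes). Mesothelial markers summed to 147 and 1006 CPM in FH and 7.99 to 13.4 CPM in FC, macrophage markers to 1681 and 2732 CPM in FH and 874 to 1475 CPM in FC, and their part was not tested. The fat interaction had a median of 0.60 with 91 of 95 positive (0.28 without FHE2, 0.37 without FC1), 4 members higher (2.06% of all genes) and 1 lower (3.15%) at an unadjusted p under 0.05, no call by edgeR (0.0% of all genes) and 1 by DESeq2 (0.427%).

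Between tissues, muscle had the higher level for nearly every member. With treatment held in the fit, 91 of 95 members were called higher in muscle than in fat and none lower, where 26.2% of all genes were called higher and 32.5% lower. This fit took muscle and fat libraries as independent, and the labels do not say whether some came from one rat. The median was 1.28 against -0.09 over 13797 genes. Without FHE3 and FCE2, 87 were called and the median was 1.22, and the share of all genes in that fit is not given here. Levels are relative to all nuclear transcripts of a tissue, so a member's higher share does not tell its amount per cell.

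Rpl3l, the striated muscle paralog of Rpl3, had the largest difference, 7.11 (SE 0.98, edgeR adjusted p = 2.27e-06), with 163 to 395 CPM in muscle. In fat it had 0.897 and 75.7 CPM in FHE, 0.298 and 0.341 in FH, 0.726, 4.37 and 0.209 in FCE, and 0.608, 0.249 and 0.566 in FC. The libraries with fibre transcripts, FHE3 and FCE2, were its highest in fat, and without them the difference was 9.04. Its value of 7.11 for FHE against FH therefore rests on FHE3.

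An entry of Rpl39 on chromosome X, of unknown counted length and chosen after its values were seen, followed with 2.75 (SE 0.34, edgeR adjusted p = 5.84e-07) at 1.21 to 5.12 CPM in muscle and 0.149 to 0.698 CPM in fat. Among called members at 10 CPM or more, the next largest were one-exon entries. The copy of Rps27a, a small subunit protein made as a fusion with ubiquitin, on chromosome 5 gave 2.14 (SE 0.21, edgeR adjusted p = 1.56e-08) with 288 to 612 CPM in muscle and 48.4 to 208 CPM in fat, without overlap. It overlaps Foxj3, which lies on the opposite strand. The Rpl21 copies on chromosomes 3 and 13 gave 2.09 and 1.93, and the chromosome 10 entry of Rpl30 gave 1.93 (SE 0.18, edgeR adjusted p = 8.73e-09), close to 1.99 for the chromosome 7 entry.

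The members not called by edgeR were Rplp1 (0.45, adjusted p = 0.0881), Rplp2 (-0.17, adjusted p = 0.597), the overlapping entry of Rpl13a (1.80, adjusted p = 0.09) and Rps4y2 (0.37, adjusted p = 0.3). Rplp0, the stalk protein that binds Rplp1 and Rplp2, was called, with 1.28 (SE 0.17, edgeR adjusted p = 1.03e-06). Rplp1 had 970 to 1652 CPM in muscle and 437 to 2246 CPM in fat, and Rplp2 had 102 to 204 CPM in muscle and 63.7 to 536 CPM in fat. In both, the FHE libraries were higher than all muscle libraries.

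**Figure D5:**
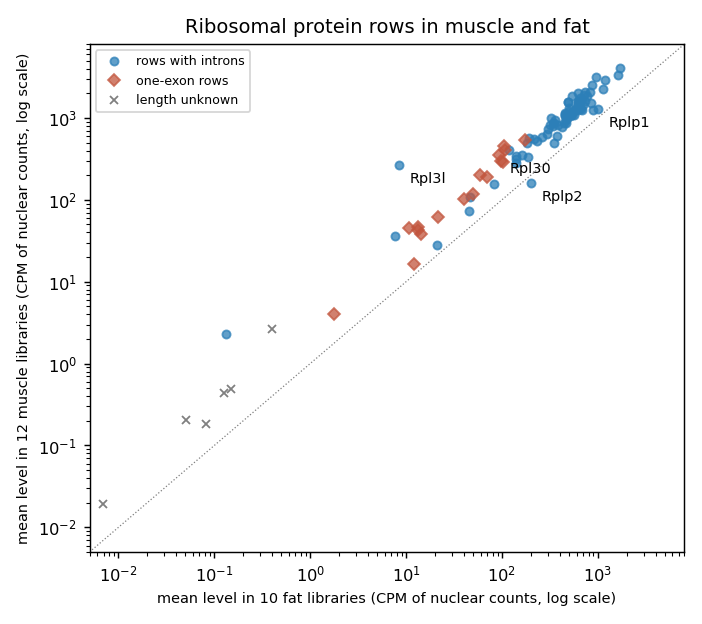
Mean level of each ribosomal protein entry in the 12 muscle libraries (vertical axis) against the 10 fat libraries (horizontal axis), both in CPM of nuclear counts on log scales, by whether the entry has introns, 1 exon or an unknown length, with the line of equal levels. Most entries lie above the line by a median log2 fold change of 1.28, and Rpl3l lies farthest from it.

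Paralogs of single ribosomal proteins were mostly low. Rpl22l1, the paralog of Rpl22, averaged 109 CPM in muscle and 46.5 CPM in fat, and Rps27l, the paralog of Rps27, 72.3 and 45.1 CPM. Rpl10l averaged 4.04 CPM in muscle and 1.77 CPM in fat, and Rpl39l, a testis paralog in the mouse, 2.27 and 0.131 CPM. Rps4x, the X-linked small subunit protein, averaged 2495 CPM in muscle and 879 CPM in fat, and its one-exon entry on chromosome 4 540 and 174 CPM. Rps4y2, also with 1 exon and listed on chromosome 4, averaged 16.3 and 12.1 CPM. Rpl26l1 has no entry among the members.

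A total of 10 symbols had more than 1 entry, 22 entries in all, and the counts of near-identical entries are uncertain because reads can be split between them. Rpl21 split its counts as 57.0%, 23.4%, 17.0% and 2.60% in muscle and 59.5%, 20.1%, 18.4% and 2.03% in fat over its entries on chromosomes 12, 13, X and 3. The entries of Rpl7a, a large subunit protein, split as 52.8% and 47.2% in muscle and 53.0% and 47.0% in fat, and those of Rps6, the small subunit substrate of S6 kinase, as 53.3% and 46.7% in muscle and 54.3% and 45.7% in fat. Rps27a split as 69.9% and 30.1% in muscle and 82.8% and 17.2% in fat, and Rps4x as 82.1% and 17.9% in muscle and 83.4% and 16.6% in fat. A total of 38 members overlap another entry, 30 of them on the same strand, and the counting setting for such reads is not given in the sources used here.

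The entry of Rpl13a named ENSRNOG00000020618 is an example of such an overlap, with the main Rpl13a entry and Flt3lg on its strand. It had 1.56, 177 and 0 CPM in MHE, 84.5, 68.3 and 2.38 in MH, 0.907, 3.44 and 88.4 in MCE, and 0, 0 and 3.07 in MC. Libraries of one group differed more than groups did, and its 5.02 for MH against MC (SE 2.09, edgeR adjusted p = 0.53) and 4.30 for MCE against MC (SE 2.08, adjusted p = 1) turned to -0.47 and -0.27 when both entries of the symbol were summed.

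Genes that work with the ribosome were read from 6 lists. None of them held a gene called by edgeR within a tissue. The most at an unadjusted p under 0.05 were 8 higher and 1 lower of 36 biogenesis genes, in FHE against FH. In that comparison 7.41% of all genes were higher and 9.42% lower at such a p. For MH against MC the medians were -0.18 for 5 entries of core proteins outside the naming rule, -0.31 for 9 elongation factors, -0.15 for 33 initiation factors, 0.17 for 36 genes of ribosome biogenesis, 0.02 for 19 genes that control ribosome synthesis through mTOR, and -0.31 for 18 entries of other messengers with a pyrimidine tract. Myc, a transcription factor that drives ribosome synthesis, had the smallest p among them in this comparison (1.29, SE 0.33, edgeR adjusted p = 0.23). For FHE against FH the medians were 0.93, 0.67, 0.45, 0.39, -0.01 and 0.50 in the same order, beside 0.87 for the members. Npm1, a nucleolar chaperone of ribosome assembly, stood at 1.07 (SE 0.31, edgeR adjusted p = 0.208), and Sesn3, an inhibitor of mTOR signalling, at -1.72 (SE 0.49, adjusted p = 0.208).

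Between tissues, edgeR called 4 of 4 core proteins higher in muscle than in fat, 7 of 9 elongation factors higher and 1 lower, 16 of 33 initiation factors higher and 7 lower, and 14 of 17 pyrimidine tract messengers higher and 1 lower. Ribosome biogenesis had 12 of 36 higher and 9 lower, and mTOR control 5 of 19 higher and 6 lower. Of all genes tested, 26.2% were called higher and 32.5% lower, and the mTOR control list stood near these shares. Medians were 0.82, 1.08, 0.28 and 1.08 for the first 4 lists, 0.02 for biogenesis and -0.15 for mTOR control, against 1.28 for the members. Eif5b, which joins the subunits at initiation, stood at 3.32 (SE 0.22, edgeR adjusted p = 3.1e-11), Mtor itself at -1.25 (SE 0.14, adjusted p = 1.22e-07) and Eif4ebp1, the translation repressor that mTOR inactivates, at -1.91 (SE 0.22, adjusted p = 1.68e-07).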

How the data were processed

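Gene expression was measured by mRNA sequencing (a stranded Illumina kit) in 12 muscle and 10 fat libraries. After quality control (FastQC) and trimming (Trimmomatic), the authors used HISAT2 for alignment, with Ensembl release 99 as reference, and deposited a single table whose read counts per gene are not normalized. The TPM values in the deposited table are counts that the authors scaled by gene length and library total; 22 FPKM columns were not used. The counting program and its strand setting are not given in the sources used here.

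Counts were fitted per tissue in R 4.3.3 with edgeR 4.0.16 (TMM, filterByExpr by group, quasi-likelihood F test, 1 mean per group, no covariate), and muscle against fat in 1 fit of 22 libraries with treatment as a covariate. Calls required adjusted p under 0.05 (Benjamini-Hochberg, over all genes tested). The fits held 94 members in muscle, 95 in fat and 95 in both. Nuclear TPM is the deposited TPM rescaled to a nuclear total of 1000000. For Rpl30 against the other members, the library size was set to the other members' summed counts, and log2 ratios with a pseudocount of 0.5 were set in exact two-sided permutation tests over samples. Wilson intervals at a level of 0.95 cover counting error only, and the nuclear counts per library, given with the results, limit the precision most in MH3. An entry was taken as one-exon where its span was at most 1.05 times its length derived from counts and TPM.

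The members and gene lists were chosen with earlier results of these data known. Named were all Rpl30 entries, called members, the 3 of smallest p per comparison within a tissue, the 5 called with the largest change between tissues at 10 CPM or more, the 5 of highest TPM per tissue, known paralogs, symbols with several entries, the 5 genes most and least like Rpl30 over muscle libraries, and up to 3 genes per list, and the text marks names that were picked with their values known. Starts came from RefSeq promoters (GRCr8), matched by symbol for 68 of 90 symbols.

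Alternatives were DESeq2 1.42.0, no filter, a filter of 5 CPM in 2 libraries, nuclear genes only, the replicate number as a block, omission of each library in turn, entries of one symbol summed, pseudocounts of 0.1 and 1, and only members with introns in the sum. Fits without FHE3 and FCE2, and with both Rpl30 entries summed, were added after seeing the data. A library left alone in its group by an omission was given the spread of the remaining groups. The edgeR fit was also run on simulated counts, and its outcome is not given here. The simulation gave all genes of a tissue the same spread, a simpler case than these data. Other steps ran in Python 3.11.15 with pandas 2.3.3, NumPy 2.4.6 and SciPy 1.17.1, and figures were drawn with matplotlib 3.10.9. Rps13 and Rps26 were not analysed here.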

Additional observations from a re-analysis of the deposited data

How the results depend on the processing

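No called log2 fold change tabulated under the alternatives changed direction, and the counts of called members stayed at 0 or 1 within muscle under every alternative. With both Rpl30 entries summed, 0 members were called for MH against MC and 0 for MHE against MH, where 1 was called before. DESeq2 called 1 member in the muscle interaction, 1 for FH against FC, 17 for FHE against FH, 4 for FHE against FCE and 1 in the fat interaction, where edgeR called none (the shares of all genes it called stand beside these counts above), and without a filter edgeR called 1 in the muscle interaction. Leaving out 1 library in turn gave 0 to 1 called members for MHE against MH and 0 to 1 in the muscle interaction.

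For Rpl30 against the other members, leaving out 1 library gave log2 fold changes of -2.66 to -2.05 for MH against MC, 1.71 to 2.30 for MHE against MH, -0.30 to 0.14 for MCE against MC (above 0 without MCE3 or MC1) and -0.44 to 0.032 for FCE against FC (above 0 without FC1). Uncalled values of the Rpl30 entry near 0 changed sign. Leaving out 1 library gave -0.31 to 0.064 for MHE against MCE, -0.25 to 0.58 for FCE against FC and -0.46 to 0.62 for FHE against FCE. Summing both entries gave 0.046 for MHE against MCE and 0.22 for FCE against FC, the fit without FHE3 and FCE2 gave 0.008 for FCE against FC, and the other members' summed counts as library size gave -0.67 for FHE against FCE. The overlapping Rpl13a entry gave -0.27 for MCE against MC and -0.47 for MH against MC when summed with the main entry, and -0.25 to 2.30 for FCE against FC when 1 library was left out. The sum is by construction mostly the main entry; the cause of the other sign changes was not tested.

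With the replicate number as a block, Rpl30 against the other members gave -2.31 for MH against MC with adjusted p = 0.0517 in edgeR, Rpl30 gave 0.10 for FCE against FC, and the block changed no other call of Rpl30 and no count of called members within a tissue. With the block, 61 members were higher and 1 lower at an unadjusted p under 0.05 for FHE against FH (13.1% and 14.0% of all genes), and 55 higher and 1 lower for FHE against FCE (6.7% and 8.6%). Deviations of same-numbered libraries from their group means correlated with a median of 0.04 in muscle (-0.18 to 0.25) and 0.20 in fat (-0.41 to 0.49). For libraries of other numbers the medians were -0.03 in muscle (-0.27 to 0.25) and -0.09 in fat (-0.49 to 0.41). The ranges overlapped, and the main fits did not take the numbers to pair libraries within a tissue. Whether they do was not tested. Between fat and muscle of one treatment, the median was 0.111 for the same number (-0.055 to 0.141). For another number it was -0.077 (-0.176 to 0.103). Deviations from one group mean cancel, so these medians are not independent of each other. Depth limits the muscle values most, where MH3 had 83 counts of the chromosome 10 entry and 51985 counts of all members.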

Other observations

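Over the 12 muscle libraries, the genes whose log2 CPM was most like that of the chromosome 10 entry of Rpl30 were LOC102552166 (Pearson r = 0.854), Myf6, a transcription factor of muscle fibres (0.854), Adprm (0.84), Rad54l2 (0.84) and Fbxw2 (0.84). Least like it were Ctsl, which encodes the lysosomal protease cathepsin L (-0.913), Magt1 (-0.863), Lemd2 (-0.86), Tspan8 (-0.858) and Coq10b (-0.835). These are the extremes of 12383 genes and are given as a description, with no test. The points share the 3 low MH libraries, and over the 10 fat libraries the same 10 genes ran from -0.62 to 0.539. The other 93 members ran from -0.501 to 0.771 with a median of 0.343, and the chromosome 7 entry stood at -0.549.

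Over the 10 pairs of a muscle and a fat library of the same treatment and number, deviations from the group means correlated between the tissues with a median of 0.201 over 94 members and 0.091 over 12297 genes. The value was over 0.9 in 4.26% of the members and 0.342% of all genes. The members over 0.9 were Rps10l1 (0.97), Rpl12 (0.969), Rps14 (0.956) and the chromosome 5 entry of Rps27a (0.922), named after their values were seen. Rps10l1, a one-exon copy of the small subunit protein gene Rps10, had 181, 127 and 67.3 CPM in MHE, 70.8, 167 and 41.6 in MH, 154, 55.8 and 62.1 in MCE, and 58.4, 106 and 154 in MC. In fat it had 91.3 and 48.6 CPM in FHE2 and FHE3, 31.4 and 24.9 in FH1 and FH3, 56.6, 17.5 and 34.3 in FCE, and 27.1, 34.0 and 37.8 in FC. In each treatment the fat libraries stood in the same order as the muscle libraries of their numbers. The order was part of what placed the gene over 0.9, and whether a number marks one rat in both tissues was not tested.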
